A study of Homo sapiens with 3 samples.

Results

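Epithelial cells are held together by adherens junctions, desmosomes and tight junctions, and these data describe the genes of those junctions beside genes of the mesenchymal state. The 40 genes were chosen by name: 21 junction genes, EPCAM, and 18 mesenchymal genes. Of them, 39 had at least 1 array feature annotated with that single symbol, 133 features in all, and 29 had a value on all 3 arrays. These 29 stood among 12550 tested genes of the series, and comprised 14 junction genes, EPCAM and 14 mesenchymal genes.

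The study hybridised RNA of obscurin shRNA cells together with RNA of control shRNA cells on each of 3 arrays that carry both dyes. The cells were MCF10A, a non-tumorigenic breast epithelial line, stably transfected with obscurin shRNA-2 or with the scrambled control shRNA-1 and kept in puromycin. Both cultures had received 150 uM etoposide, which traps topoisomerase II on broken DNA, for 48 hours, so no untreated cells enter the comparison. The obscurin shRNA cells were channel 1 (Cy5) and the control shRNA cells channel 2 (Cy3) on every array, so dye and shRNA cannot be told apart. The labels name 1 shRNA per condition, do not say whether either line was a clone, and call the 3 arrays independent replicates. Whether these came from separate cultures is not said, so the p-values measure the spread between arrays, which may be technical.

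All values below are log2 ratios relative to the median over all features of the same array, unless stated otherwise. A positive value is likely higher in obscurin shRNA cells than in control shRNA cells, since the obscurin shRNA cells are channel 1, but no label states which channel was divided by which. The array medians as deposited were 1.49, 1.28 and 1.39 on arrays 1, 2 and 3, so the choice of zero point matters. The tested genes had a median of -0.47, -0.48 and -0.48 on this scale, and 68.4% of them had a mean below 0. The files hold ratios only, so the level of a gene in either cell culture, and with it the presence of epithelial markers, was not assessed.

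In adherens junctions, cadherins bind neighbouring cells and are tied to actin by catenins, while desmosomal cadherins are tied to keratin filaments through plakophilins, plakoglobin and desmoplakin. Tight junctions seal the space between cells with claudins and occludin, anchored on scaffold proteins. In the epithelial to mesenchymal transition, transcription factors of the SNAI, ZEB and TWIST families repress junction genes by binding E-boxes in their promoters, and genes such as vimentin and fibronectin are induced, with TGF-beta as a main trigger.

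The E-box letters that SNAI and ZEB factors prefer, CACCTG, were searched on both strands in the RefSeq promoter windows of the members (build GRCh38.p14, 250 bases before to 50 after a start; on the other strand the motif reads CAGGTG, and matches cannot overlap). Windows were found for 16 of 21 junction genes and 15 of 18 mesenchymal genes. A match was present for 9 of the 16 junction genes (56.3%) and 3 of the 15 mesenchymal genes (20.0%), against 24.1% of all 27305 genes with a window. Counted by window, because many genes have several, the shares were 37.0%, 18.5% and 20.6%. The 4 junction genes that had a value on all 3 arrays and at least 2 matches in 1 window are shown, because they carry the sequence through which SNAI and ZEB factors are known to act. Each sequence runs 5′ to 3′ on the gene's strand, and capitals mark the matches.
DSP, chr6:7541421-7541720, plus strand: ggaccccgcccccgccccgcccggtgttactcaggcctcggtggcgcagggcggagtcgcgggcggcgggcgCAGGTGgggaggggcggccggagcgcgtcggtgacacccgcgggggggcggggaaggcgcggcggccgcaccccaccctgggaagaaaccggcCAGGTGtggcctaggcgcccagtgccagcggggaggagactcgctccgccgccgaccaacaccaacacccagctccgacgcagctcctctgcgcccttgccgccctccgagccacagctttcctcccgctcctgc
DSG2, chr18:31497927-31498226, plus strand: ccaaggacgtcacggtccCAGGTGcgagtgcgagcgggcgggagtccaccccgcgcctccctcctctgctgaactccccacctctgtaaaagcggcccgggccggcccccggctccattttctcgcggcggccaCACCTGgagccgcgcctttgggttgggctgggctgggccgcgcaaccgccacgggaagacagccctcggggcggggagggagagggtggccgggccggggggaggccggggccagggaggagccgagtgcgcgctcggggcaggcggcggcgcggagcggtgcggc
CLDN7, chr17:7262429-7262728, minus strand: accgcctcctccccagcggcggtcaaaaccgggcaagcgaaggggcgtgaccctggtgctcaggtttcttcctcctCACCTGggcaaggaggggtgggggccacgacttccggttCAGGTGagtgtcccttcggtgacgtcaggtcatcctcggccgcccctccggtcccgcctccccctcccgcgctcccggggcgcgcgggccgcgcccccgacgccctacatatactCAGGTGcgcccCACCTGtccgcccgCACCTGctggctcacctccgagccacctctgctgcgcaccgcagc
OCLN, chr5:69492540-69492839, plus strand: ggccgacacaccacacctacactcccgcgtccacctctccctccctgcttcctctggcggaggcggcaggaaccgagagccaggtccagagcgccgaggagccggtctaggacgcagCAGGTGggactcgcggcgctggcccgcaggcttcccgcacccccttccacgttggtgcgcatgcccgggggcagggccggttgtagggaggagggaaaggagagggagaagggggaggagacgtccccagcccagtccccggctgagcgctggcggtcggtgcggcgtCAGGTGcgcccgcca
The CLDN7 window held 5 matches and the other 3 windows held 2 each. A match describes the sequence and is not evidence of binding. The 4 genes had mean log2 ratios of -3.24 (DSP), -0.81 (DSG2), -1.37 (CLDN7) and -0.45 (OCLN), with values by array given below. Among all tested genes, 68.4% had a mean below 0. JUP also had 2 matches in 1 window, but it had no value on array 1 and 0.32 and 0.24 on arrays 2 and 3. The mesenchymal gene ZEB1, not shown, had 3 matches in 1 of its windows and a mean log2 ratio of -0.14. No window was found for CDH1 or PKP3.

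Obscurin shRNA cells and control shRNA cells did not differ past the threshold in any junction or mesenchymal gene. By limma, 0 of 29 members had an adjusted p under 0.05 in either direction, against 0% of the 12550 tested genes. At an unadjusted p under 0.05 there were 0 members above the array medians, where 0.829% of tested genes lay, and 6 below, where 22.8% of tested genes lay. These 6 were PKP3, CD44, ZEB2, FN1, DSP and DSC3, which belong to both sides, 3 junction genes and 3 mesenchymal genes. A count of 6 of 29 is near the share among all tested genes. The split followed the zero point: with the values as deposited, 11 members had an unadjusted p under 0.05 on the upper side and 1 on the lower side (30.4% and 6.14% of tested genes). With the median of the tested genes as zero on each array these numbers were 3 and 3 (9.71% and 15.4%). With each array centred on its most repeated value, 0 members passed the adjusted threshold above, where 0.0159% of tested genes did, and 4 below, namely PKP3, CD44, ZEB2 and FN1, where 17.2% of tested genes did. With gene means taken over features that had a value on all 3 arrays, 0 passed above, where 0.0339% of 11809 genes did, and 2 below, PKP3 and ZEB2, where 10.0% did.

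**Figure D1:**
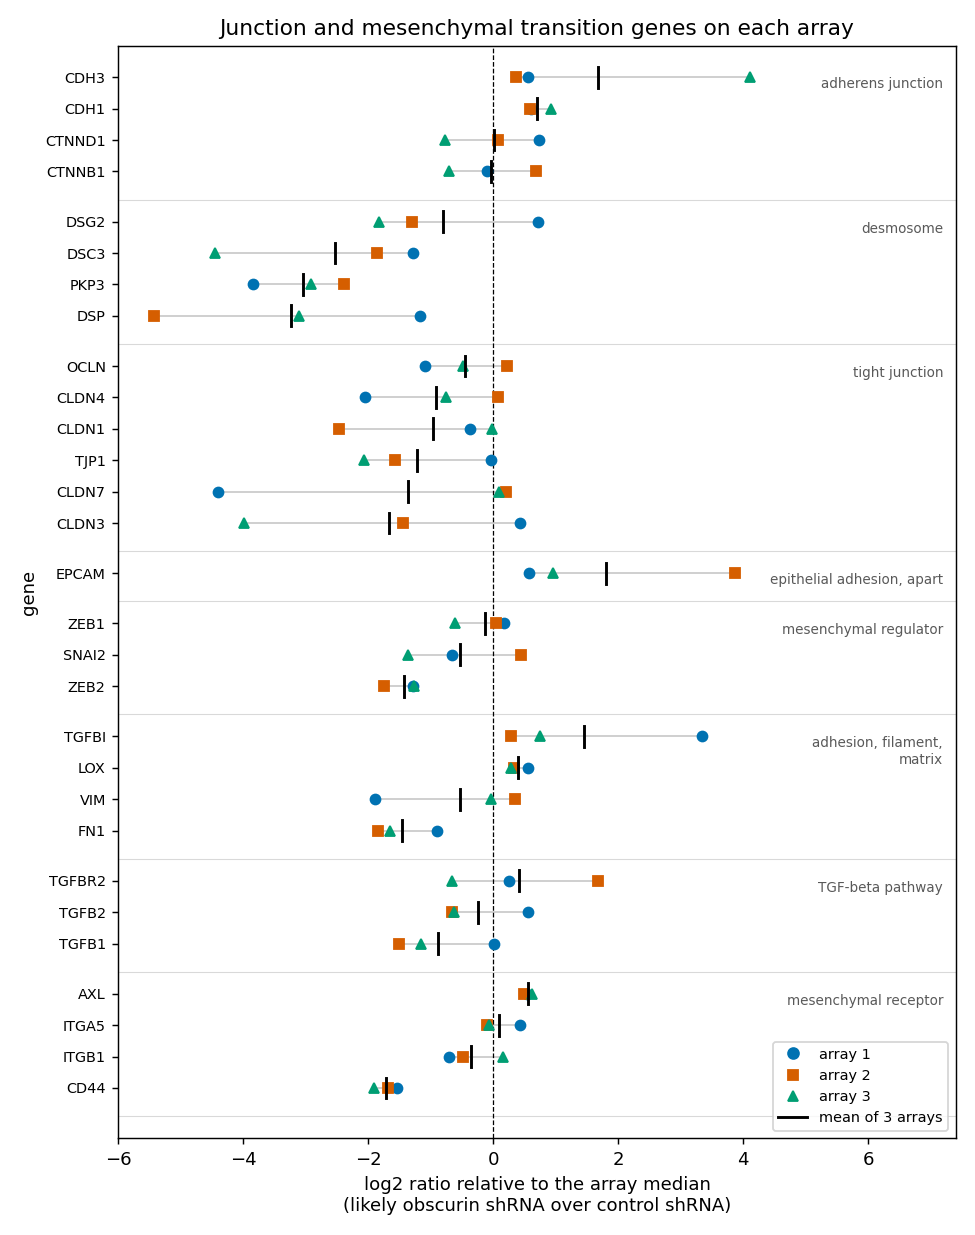
Log2 ratio of each of the 29 genes relative to the array median (horizontal axis) on array 1 (circles), array 2 (squares) and array 3 (triangles), with the mean as a black bar, ordered by mean within each group. The desmosome genes DSP, DSC3 and PKP3 and the mesenchymal genes CD44, ZEB2 and FN1 lie below 0 on every array, and CDH1, AXL and LOX lie just above it on every array.

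On all 3 arrays, 6 members lay above the array median and 8 below it. Among all tested genes, 15.7% lay above on all 3 arrays and 33.8% below. The 6 above were the cadherins CDH1 and CDH3, EPCAM, LOX, TGFBI and AXL. The 8 below were DSP, DSC3, PKP3, CLDN1, TJP1, ZEB2, FN1 and CD44. The other 15 members changed sign between arrays. With the most repeated value of each array as zero, 1 member lay above on every array and 21 below, and with the values as deposited 15 lay above and 2 below.

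Adherens junction genes had a median slightly above those of the arrays. CDH1, which encodes E-cadherin, the cadherin of epithelial adherens junctions, had 0.61, 0.58 and 0.92 on arrays 1, 2 and 3, a mean of 0.71 ± 0.34 (SE, n = 3, 95% interval -0.23 to 1.64, limma adjusted p = 0.299). All 3 values were above the array median and close together, but the mean was 0.081 with the most repeated value as zero and 0.19 at the earlier feature row, a setting described below. CDH3, P-cadherin of basal epithelium, had 0.56, 0.36 and 4.11, so that its mean of 1.68 ± 0.92 (SE, limma adjusted p = 0.336) rested largely on array 3, where its single feature stood far apart. CTNNB1, beta-catenin, which links cadherins to alpha-catenin, had -0.11, 0.68 and -0.70, and changed sign between arrays. CTNND1, p120-catenin, which stabilises cadherins at the membrane, had 0.73, 0.07 and -0.78. CTNNA1, alpha-catenin, the link to actin, had -0.97 and -0.96 on arrays 1 and 2 and no value on array 3. Its features were unlike, with 0.65 and -2.60 on array 1 and 0.32 and -2.25 on array 2. The median of the 4 genes on all arrays was 0.58, 0.47 and 0.11, a mean of 0.39 ± 0.25 (SD, n = 3 arrays), against -0.48 ± 0.0075 for all tested genes. It was -0.24 with the most repeated value as zero and -0.66 at the earlier feature row.

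Desmosome genes had the lowest median of the junction groups at the annotated place. PKP3, plakophilin 3, a desmosomal plaque protein of stratified and simple epithelia, had -3.84, -2.39 and -2.91, a mean of -3.05 ± 0.44 (SE, n = 3, 95% interval -4.28 to -1.82). This was the smallest p of any member (limma adjusted p = 0.0537), and it missed the threshold. The value rested on 1 feature, and with values taken from 1 feature row earlier the mean was 2.01. DSP, desmoplakin, which anchors keratin filaments to the plaque, had -1.17, -5.44 and -3.11, below the median on all arrays but over a range of 4.27 (limma adjusted p = 0.143). Its 2 features were unlike, with -2.59 and 0.25 on array 1 and -2.19 and -8.69 on array 2. The DSP mean of -3.24 was -2.14 without array 2 and 0.02 at the earlier row. DSC3, desmocollin 3, a cadherin of basal layers, had -1.28, -1.87 and -4.45 (limma adjusted p = 0.154). Its array 1 value averaged features at -2.805 and 0.237. DSG2, desmoglein 2, differed between arrays, with 0.72 on array 1 and -1.30 and -1.84 on arrays 2 and 3. It also differed between its 2 features. Of these, 1 had 0.85, -3.37 and -3.87, and the other was above the median on every array, with 0.58, 0.78 and 0.20. The median of these 4 genes was -1.23, -2.13 and -3.01, a mean of -2.12 ± 0.89 (SD, n = 3 arrays), and -0.69 at the earlier feature row, where the tight junction median of -1.15 was lower.

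The other 5 desmosome genes had values on 2 arrays each and did not enter the test. The desmosomal cadherins DSC2 and DSG3 were below the median, with -5.22 and -2.65 (DSC2) and -1.55 and -1.66 (DSG3) on arrays 1 and 3. The plaque proteins among these 5 were above it: PKP1 had 1.62 and 0.98 and JUP, plakoglobin, 0.32 and 0.24 on arrays 2 and 3, and PKP2 had 0.33 and 1.94 on arrays 1 and 3. The low values of the desmosome group were thus not shared by all of its members, and with genes valued on at least 2 arrays its median was -1.57.

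Tight junction genes had mixed values with means below the array medians. CLDN1, a claudin required for the epidermal barrier, had -0.38, -2.48 and -0.03, and TJP1, the scaffold ZO-1, had -0.04, -1.57 and -2.07. Both means were below the median on all arrays, but both genes averaged features of opposite sign. The CLDN1 features had -1.83 and 1.07 on array 1, -2.25 and -2.70 on array 2, and 1.35 and -1.40 on array 3. Of the TJP1 features, 1 had -0.73, -3.36 and -4.36. The other TJP1 feature was above the median on every array, with 0.64, 0.22 and 0.22. Without array 2 the CLDN1 mean of -0.96 was -0.20, and without array 3 the TJP1 mean of -1.23 was -0.81. CLDN3 had 0.43, -1.45 and -4.00, and CLDN4 had -2.06, 0.08 and -0.76. CLDN7 had -4.40 on array 1 and 0.20 and 0.08 on arrays 2 and 3, so that its mean of -1.37 ± 1.11 (SE) came from array 1, and without that array it was 0.14. OCLN, occludin, had -1.09, 0.22 and -0.49. The 6 genes had medians of -0.73, -0.68 and -0.63, a mean of -0.68 ± 0.05 (SD, n = 3 arrays). The SD over arrays was wider with other feature summaries, 0.24 with the median of features and 0.22 with features valued on all arrays. The limma adjusted p of the 6 genes was 0.272 or higher. TJP3 had no feature that could be used here.

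EPCAM, an epithelial adhesion molecule outside these junctions, had 0.58, 3.87 and 0.95, all above the array medians, with array 2 apart (limma adjusted p = 0.276).

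Of the 3 mesenchymal regulators with a value on all arrays, ZEB2 was below the array median on every array and ZEB1 and SNAI2 were not. ZEB2 had -1.29, -1.75 and -1.27, a mean of -1.43 ± 0.35 (SE, n = 3, limma adjusted p = 0.107). These even values averaged unlike features, which reached from -2.76 to 2.57 on array 1 and from -2.92 to -0.25 on array 2. On array 3 the ZEB2 features had 0.57 and -3.10. At the earlier feature row the ZEB2 mean was 0.02. ZEB1 had 0.16, 0.04 and -0.62, near the median on all arrays. SNAI2 (Slug) had -0.66, 0.45 and -1.37. SNAI1 (Snail), with 0.44 and -0.08 on arrays 1 and 3, and TWIST1, with -2.58 and -0.11 on arrays 1 and 2, were not tested. Of these 5 regulators, 0 were above the array median on every array on which they had a value. This depended on the zero point. With the values as deposited the means were 1.25 (ZEB1), 0.86 (SNAI2) and -0.05 (ZEB2).

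The mesenchymal adhesion, filament and matrix genes were split. FN1, fibronectin, had -0.90, -1.85 and -1.65, a mean of -1.47 ± 0.39 (SE, n = 3, limma adjusted p = 0.124), below the median on all arrays. VIM, the intermediate filament vimentin, had -1.89, 0.34 and -0.03, and its mean of -0.53 changed to 0.16 without array 1. LOX, a collagen crosslinking oxidase, had 0.56, 0.34 and 0.28, all slightly above the median, but its mean was -0.23 with the most repeated value as zero and -1.02 at the earlier feature row. TGFBI, a matrix protein induced by TGF-beta, had 3.34, 0.29 and 0.75, all above it, with array 1 apart. CDH2, N-cadherin, which replaces E-cadherin in the cadherin switch, had -3.04 on array 1 and 1.61 on array 3, from 1 feature, so the arrays gave opposite signs. SPARC, a secreted matrix protein, had -1.40 and 0.54 on the same arrays.

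The TGF-beta genes did not share a direction across arrays. The ligand TGFB1 had 0.01, -1.51 and -1.16, and the ligand TGFB2 had 0.56, -0.65 and -0.62, so both means were higher on array 1 than on the others. For TGFB2 this came from 1 feature, with 0.69, -1.84 and -2.18, while the other had 0.42, 0.53 and 0.93. Their receptor TGFBR2 had 0.25, 1.68 and -0.67, and its array 2 value averaged features at 5.59 and -2.24. The smallest limma adjusted p of the 3 genes was 0.321.

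Among the receptors, CD44 was below and AXL above the array median on every array. CD44, the receptor for hyaluronan, had -1.54, -1.69 and -1.90, a mean of -1.71 ± 0.34 (SE, n = 3, 95% interval -2.64 to -0.78, limma adjusted p = 0.0747). AXL, a receptor tyrosine kinase, had 0.53, 0.50 and 0.62 (mean 0.55 ± 0.33, limma adjusted p = 0.363), and -0.07 with the most repeated value as zero. The CD44 mean on array 1 included 1 feature at -9.17 that had no value on the other arrays, and the CD44 feature medians, -1.14, -2.62 and -2.65, were less even than its means. AXL, with 1 feature, had an SD over arrays of 0.07, and the median SD over all tested genes was 0.91. ITGA5, the alpha chain of the fibronectin receptor, had 0.42, -0.10 and -0.07. ITGB1, its beta chain, had -0.71, -0.49 and 0.15.

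The junction genes were set against the mesenchymal genes on each array. The median of the 14 junction genes was -0.24, -0.61 and -0.77, a mean of -0.54 ± 0.27 (SD, n = 3 arrays). The median of the 14 mesenchymal genes was 0.09, -0.03 and -0.62, a mean of -0.19 ± 0.38. The junction median was the lower one on each array. The difference, junction minus mesenchymal, was -0.33, -0.59 and -0.15, a mean of -0.36 ± 0.22 (SD, n = 3 arrays). No p is given for it, since the genes were chosen with results of these data known. The median of all tested genes, -0.48 ± 0.0075, lay between those of the 2 sets. The junction genes included 11 of 14 with a mean below 0 and the mesenchymal genes 9 of 14, against 68.4% of tested genes.

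**Figure D2:**
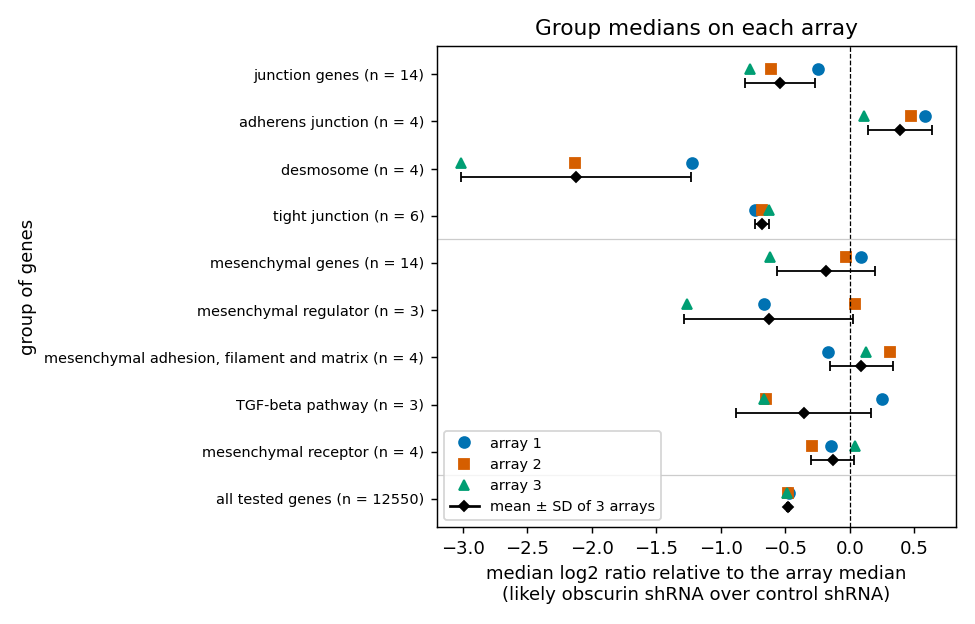
Median log2 ratio of each group relative to the array median (horizontal axis) on array 1 (circles), array 2 (squares) and array 3 (triangles), with the mean and SD of the 3 arrays (diamonds with bars). Desmosome genes reach from -1.23 to -3.01 and adherens junction genes from 0.11 to 0.58, and the 2 full sets lie at -0.54 and -0.19, with all tested genes at -0.48.

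This difference depended on single genes and on which feature a value was assigned to. With EPCAM counted as a junction gene it was -0.08, and with CDH3 counted as a mesenchymal gene -0.68. With each value taken from 170 features earlier, a displacement read here as 1 feature row of the array, the sign turned, to 0.77 ± 0.72 (SD, n = 3 arrays). The members measured change with the place, and 10 junction and 11 mesenchymal genes were measured at both. Over these alone, a comparison chosen after seeing the data, the difference was 1.25 ± 0.67 at the earlier row and 0.038 ± 0.33 at the annotated place, so the negative difference was not seen without the members measured at the annotated place only.

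**Figure D3:**
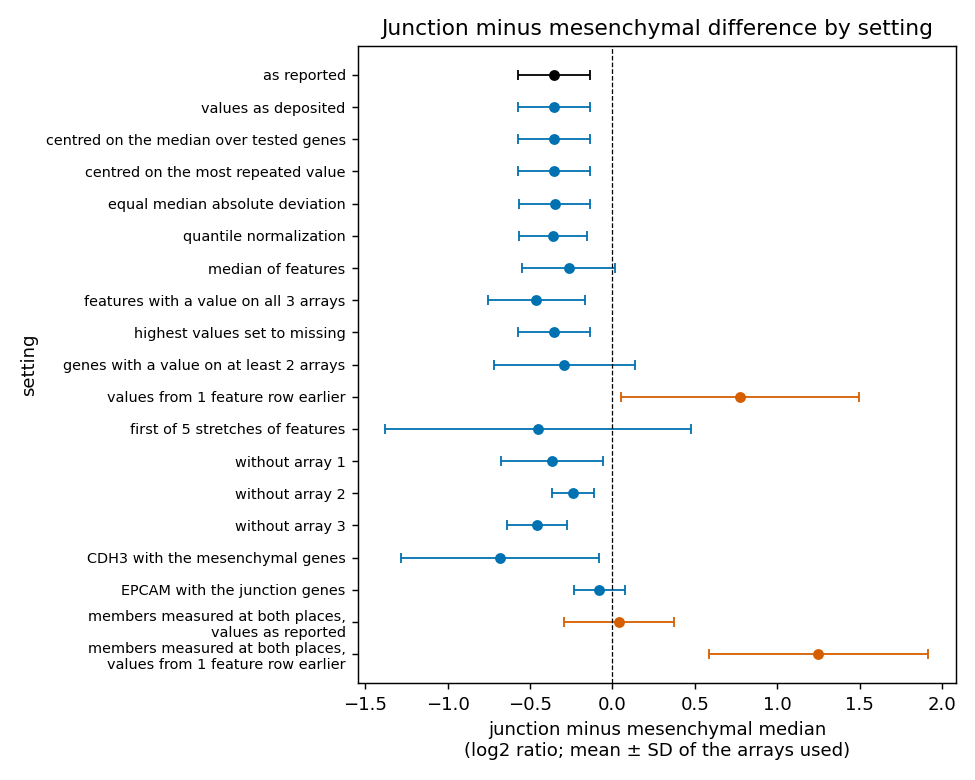
Junction median minus mesenchymal median (horizontal axis, log2 ratio, mean and SD of the arrays used) for the values as reported (top) and for each other setting below. All points lie below 0 except values from 1 feature row earlier, at 0.77, and the members measured at both places, at 0.038 as reported and 1.25 at the earlier row.

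The displacement by 1 row bears on these genes because the arrays carry some of them many times. There were 7 members with 10 or more features, and the features of a gene should give like values if annotation and values match. The spread was taken as the SD of the features' percentile ranks on an array, which is 28.9 over all features. It was smaller at the annotated place than 1 row earlier for 2 of 7 genes on array 1, and for 5 of 7 genes on each of arrays 2 and 3. The median spread was 23.7, 26.9 and 24.5 at the annotated place and 25.0, 26.0 and 30.1 at the earlier row. Over genes and arrays together it was smaller at the annotated place in 12 of 21 cases. The 170 features were chosen as the displacement, up to 600, at which the arrays correlated best with themselves (mean 0.13). The 2 places are thus not independent, and the comparison cannot settle whether the annotation is right. The gene names are those of the annotation and are not borne out by these repeats over the whole of the arrays.

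CDH1 had the tightest features of the 7 genes at the annotated place. Its 8 valued features on array 1 reached from 0.11 to 0.90, with a percentile SD of 12.5. The 9 on array 2 reached from -0.38 to 1.48, and the 7 on array 3 from -0.08 to 4.37 with a median of 0.36. Of CDH1's features, 8 of 8, 7 of 9 and 4 of 7 lay within 0.5 of the most repeated value of the array (0.58, 0.69 and 0.61 on arrays 1, 2 and 3), where 39.7%, 36.2% and 38.9% of all features lay. LOX had medians of 0.47, 0.27 and 0.40 over its features, with 5 of 8, 4 of 10 and 8 of 10 in that range. AXL, with 1 feature, was in that range on all 3 arrays too. By gene mean, CDH1, LOX and AXL were the 3 of 29 members within 0.5 of the most repeated value on every array. This is near the share of 8.02% among tested genes.

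FN1 and CD44 had most of their features far lower. The FN1 features had medians of -2.20, -2.57 and -2.65, with 8 of 13, 8 of 12 and 6 of 11 at or under -1. The CD44 features had medians of -1.14, -2.62 and -2.65, with 6 of 10, 7 of 9 and 7 of 10 at or under -1. Their remaining features reached up to 4.86 (FN1, array 1) and 2.04 (CD44, array 2), so the gene means mix both. ITGB1 features were found on both sides, 5 above and 5 below the median on array 1 and again on array 3, and TGFB1 features were divided 4 above to 6 below on array 2. CTNNB1 had medians of 0.09, 0.11 and 0.25 over features that ranged from -5.83 to 3.13.

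**Figure D4:**
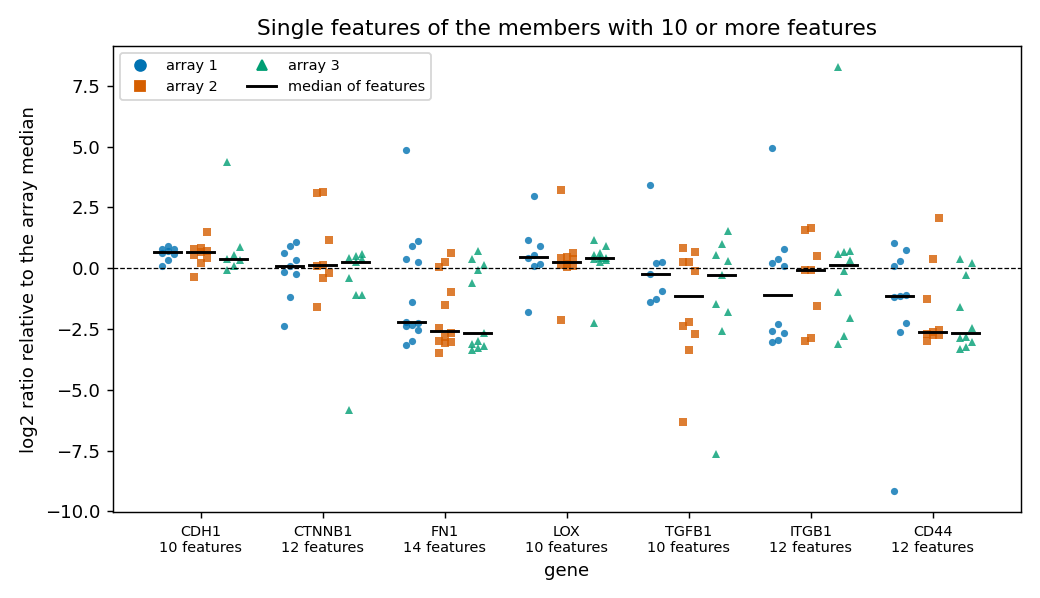
Log2 ratio relative to the array median (vertical axis) of every valued feature of the 7 genes with 10 or more features, on array 1 (circles), array 2 (squares) and array 3 (triangles), with the median of each set as a black bar. CDH1 and LOX features gather just above 0, most FN1 and CD44 features lie between -2 and -3.5 on arrays 2 and 3, and ITGB1 and TGFB1 features are spread on both sides.

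In the first of 5 consecutive stretches of the feature list, 7 members had at least 2 valued features on array 2 or 3. Most features of a gene were alike on both arrays for FN1, ITGB1, CD44 and LOX, and were unlike on at least 1 array for TGFB1, DSP and CLDN1. The 4 FN1 features there had -3.49, -3.08 and -2.81 on array 2, with 1 missing, and -3.27, 0.12, -3.36 and -3.22 on array 3. The ITGB1 features had -3.00 and -2.88 on array 2 and -3.13 and -2.77 on array 3, and the CD44 features -2.56 and -2.62 on array 2 and -2.45 and -3.25 on array 3. The 4 LOX features reached from 0.03 to 0.62 on array 2 and from 0.26 to 1.18 on array 3. On array 1 the same stretch gave 4.86 and -2.98 as extremes for FN1 and 4.95 and -2.94 for ITGB1, so the likeness was not seen there. The ITGB1 mean over all its features, -0.35, thus differed from that of its first-stretch features. The TGFB1 features had -6.32 and -2.69 on array 2 and 1.53 and -7.64 on array 3. On arrays 2 and 3, PKP3, DSC3, EPCAM, CLDN7, PKP1, DSP and CLDN1 were measured by features of this stretch alone. The first 5 had 1 valued feature each, with -2.39 and -2.91 (PKP3), -1.87 and -4.45 (DSC3), 3.87 and 0.95 (EPCAM), 0.20 and 0.08 (CLDN7) and 1.62 and 0.98 (PKP1).

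**Figure D5:**
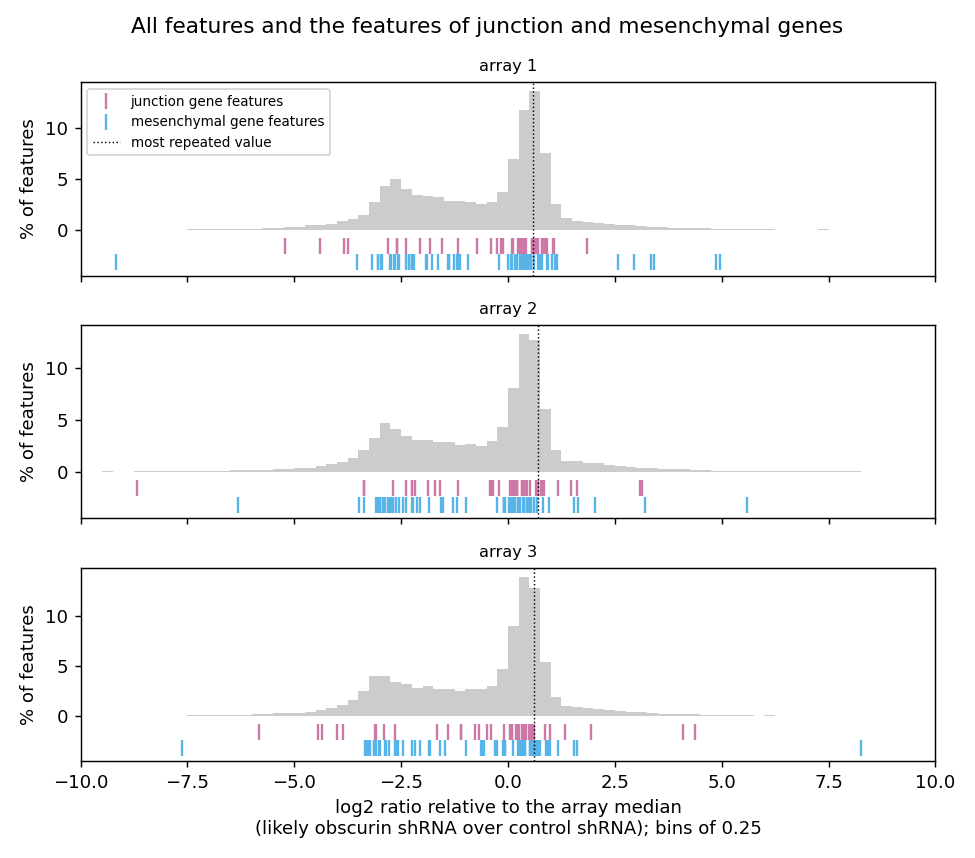
Share of all features (vertical axis, percent, bins of 0.25) by log2 ratio relative to the array median (horizontal axis) on each array, with the features of junction genes and of mesenchymal genes as ticks below and the most repeated value as a dotted line. Features form a narrow peak just above 0 and a broad shoulder below -1, and members of both sets are found in both; values beyond 10 are not drawn.

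The distribution of ratios had a narrow peak and a broad lower part, and both sets of genes had features in each. At or under -1 there were 27.9%, 28.6% and 33.3% of junction gene features on arrays 1, 2 and 3, and 45.6%, 45.3% and 37.3% of mesenchymal gene features, against 38.2%, 37.6% and 36.9% of all features. By feature the mesenchymal genes thus had the larger share of low values on every array, while by gene the junction genes had the lower median. Features are not independent, since FN1, CD44, ITGB1 and CTNNB1 supply many of them.

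The arrays ranked the members more alike than not. Arrays 2 and 3 had a rank correlation of 0.67 over the 29 members, and array 1 had 0.40 with array 2 and 0.40 with array 3. Over all tested genes the same pairs had 0.49, 0.33 and 0.27. These are descriptions across genes, which are not independent, and within an array all points share its dyes and processing. The SD over arrays exceeded 1 for 13 of 29 members and was under 0.5 for 9. Of the 29 members, 9 were measured by 1 feature, 13 by 2 to 4 and 7 by 10 or more.

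Other genes of the same structures were described from lists of their own. Of 25 further junction genes, 17 had a value on all arrays, with a median of -0.92 ± 0.78 (SD, n = 3 arrays), and 0 passed the threshold by limma. They included VCL, vinculin, which couples cadherins to actin, at -2.11 ± 0.45 (SE, limma adjusted p = 0.0839). MARVELD2, tricellulin of tight junctions, measured by 1 feature, had -2.72 ± 0.75 (limma adjusted p = 0.134). At an unadjusted p under 0.05, 4 of the 17 lay below and 0 above, near the shares among all tested genes (22.8% and 0.829%). Of 26 further mesenchymal transition genes, 18 were measured, with a median of -0.83 ± 0.33 and 0 past the threshold. Among them MMP9, a matrix metalloproteinase measured by 10 features, had -2.18, -2.35 and -2.57 (limma adjusted p = 0.0524). FOXC2, a transcription factor of the mesenchymal state measured by 1 feature, had a mean of -2.86 (limma adjusted p = 0.0524). This was the smallest limma adjusted p of any tested gene, and ESRP2 and CD68 below share it. Averaged over arrays, both further lists had lower medians than the members they extend, a difference that was not tested, but on array 3 the further junction genes had -0.30 against -0.77 for the junction members.

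Genes listed as regulators of the epithelial state had a median of -2.16 ± 0.35 (SD, n = 3 arrays) over 7 measured genes of 14. All 7 means were below 0, where 68.4% of tested genes lay. The splicing regulators ESRP2, with -2.89, -2.91 and -2.42 (limma adjusted p = 0.0524), and ESRP1, with -4.67, -2.30 and -4.33 (limma adjusted p = 0.0578), were low on all arrays. They had the smallest p of the list and were measured by 1 feature each. Of the 7 genes 0 passed the threshold by limma, and 3 had an unadjusted p under 0.05, all below, against 22.8% of tested genes.

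Markers of cell types were given beside them as ratios. Basal breast markers were measured for 2 of 8 genes, KRT14 at -2.07 ± 0.51 and LAMB3 at -4.66 ± 1.23 (SE). All 5 measured of 7 luminal markers were below the median on all 3 arrays, where 33.8% of tested genes lay below on all 3. Among them were KRT18 at -3.54 ± 0.55 and MUC1 at -3.02 ± 0.34. LAMB3 and MUC1 were measured by 1 feature each. The median of 6 measured fibroblast markers was -0.22 ± 0.24 (SD, n = 3 arrays), that of 4 leukocyte markers -0.40 ± 0.91 and that of 3 endothelial markers 0.18 ± 0.48. The fibroblast marker THY1 had -2.29, -3.13 and -1.78 (limma adjusted p = 0.065). The leukocyte marker CD68 had -2.48, -2.30 and -2.69 (limma adjusted p = 0.0524). THY1 and CD68 had the smallest p of their lists and were measured by 1 feature each. Below the median on all 3 arrays lay 1 of 6 measured fibroblast, 1 of 4 leukocyte and 0 of 3 endothelial markers, against 33.8% of tested genes. Both measured basal markers lay below on all 3 arrays. The fibroblast marker COL3A1 had 0.75, -2.92 and -2.62. Means were above 0 for CD3E (leukocyte, 0.64) and for PECAM1 and KDR (endothelium, 0.83 and 0.51). The part of these markers in the values of the junction and mesenchymal genes was not tested.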

How the data were processed

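Arrays of 45220 features carrying both dyes compared obscurin shRNA with control shRNA MCF10A cells (3 arrays, 10 ug of RNA per the labels' protocols). The deposited values are log2 ratios of the 2 channels, 1 per feature and array; the labels do not state log base, normalization or direction. Base 2 was read from the values: the highest value of each array, shared by 35 to 51 features, lay 16.61 above the most repeated one, the log2 of a ratio limit. Neither the scanner nor its software is given in the sources used here. Reading base 2 in this way takes the most repeated value to be a ratio of 1, which the labels do not state. Centring and direction thus stay unknown from the labels. The results with the most repeated value as zero are given beside the others. Between 35502 and 36065 features per array had a value, and 23308 on all 3. The number of arrays limits the precision.

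Features with exactly 1 symbol in the platform annotation (31332, of which 31291 matched RefSeq GRCh38.p14 by Entrez identifier and 0 changed) were centred on each array's median over all features and averaged per gene. Another 93 features had several symbols and 13795 none. The 12550 genes with a value on all 3 arrays entered limma (version 3.58.1, under R 4.3.3), which fitted an intercept, moderated the variances with eBayes and gave two-sided p-values, adjusted by Benjamini-Hochberg at 0.05. The fit was tested on simulated data with known shifts, at the spread of these data and at a smaller one. Recovery of the shifted genes was required only at the smaller spread, so the power at the real spread is not given here. Each measured member is named; from other lists the 2 genes with the smallest p. The members, lists and settings were chosen with earlier results of these data known. Other zero points, scalings, feature summaries, places and left-out arrays were tried. The targeted gene is not reported here.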

Additional observations from a re-analysis of the deposited data

How the results depend on the processing

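Under scaling to equal spread, quantile normalization, highest values set to missing, values on at least 2 arrays and robust eBayes, every count stayed within 1.5 times, and every group median within 1 SD over arrays, of the value as reported, and the 29 members kept their sign except CTNND1 with equal spread (-0.018). Genes past the threshold, 0 above and 0 below as reported, became 2 and 2161 with the most repeated value as zero, 4 and 1182 with features valued on all arrays, 0 and 1 in a 1-sample test without moderation, and 11 and 2602 features when each feature was tested, 4 and 2 members passing below in the first 2 of these settings. Members above and below on every array, 6 and 8 as reported, became 15 and 2 as deposited, 1 and 21 with the most repeated value as zero, 5 and 14 one feature row earlier, and 2 and 5 in the first stretch; leaving out an array gave 6 to 9 above and 9 to 13 below, with 13 below without array 1 and without array 2.

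Leaving out an array gave a mesenchymal median of -0.32 to 0.03, above 0 without array 3, and a difference of -0.46 to -0.24. Group medians followed the zero point. As deposited they were 0.84 (junction), 1.20 (mesenchymal), 1.77 (adherens), -0.74 (desmosome) and 0.70 (tight junction). Centred on tested genes they were -0.065, 0.29, 0.87 and -0.20 for junction, mesenchymal, adherens and tight junction genes, and with the most repeated value as zero -1.17, -0.81, -0.24 and -1.30. In the first stretch they were -2.16, -1.71, -0.18 and -1.17. At the earlier row the mesenchymal, adherens, desmosome and tight junction medians were -1.44, -0.66, -0.69 and -1.15, and the difference between junction and mesenchymal genes 0.77; over members measured at both places, added after seeing the data, it was 1.25 there and 0.038 as reported. The tight junction median was -0.52 with medians of features and -0.46 with features valued on all arrays. With CDH3 among the mesenchymal genes the junction median was -0.82 and the difference -0.68, and with EPCAM among the junction genes they were -0.27 and -0.080.

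Means of single members that changed sign as deposited were CTNNB1 1.34, DSG2 0.58, CLDN1 0.42, CLDN4 0.47, CLDN7 0.012, OCLN 0.93, TJP1 0.16, SNAI2 0.86, ZEB1 1.25, VIM 0.86, TGFB1 0.50, TGFB2 1.15 and ITGB1 1.03. Centred on tested genes they were CTNNB1 0.43, OCLN 0.023, ZEB1 0.34, TGFB2 0.24 and ITGB1 0.13, and with the most repeated value as zero CTNND1 -0.62, LOX -0.23, TGFBR2 -0.21, AXL -0.074 and ITGA5 -0.54. At the earlier row they were CTNND1 -0.086, DSP 0.023, PKP3 2.01, OCLN 0.96, ZEB2 0.022, LOX -1.02, TGFB2 0.52, TGFBR2 -2.68 and ITGA5 -2.47. The others were CTNND1 -0.29 and OCLN 0.082 with features valued on all arrays, ZEB2 0.077 in the first stretch and CTNNB1 0.15 with medians of features. Leaving out 1 array gave CTNNB1 -0.40 to 0.29, CTNND1 -0.35 to 0.40, CLDN7 -2.16 to 0.14, ZEB1 -0.29 to 0.10, VIM -0.96 to 0.16, TGFBR2 -0.21 to 0.96 and ITGA5 -0.085 to 0.18. The cause of these changes was not tested beyond the construction of each setting. No paired analysis was possible because each value is already a ratio of both conditions on 1 array, which pairs them by construction, so that no further block could be fitted. Signal over background was not used here, so its limit on dim features is not known.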
